A study of Homo sapiens with 2 samples.

Results

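The nuclear factor I (NFI) genes NFIA, NFIB, NFIC and NFIX were followed in RNA-seq of the established human renal carcinoma cell line ACHN after an shRNA against KIAA1429. The members were chosen by gene name, all 4 were found among the 12014 genes in the deposited tables, and the family was picked with the lower NFIX level in these libraries already known. The changes below therefore describe these libraries and are not a test of the family. There was 1 library of cells infected with lentivirus carrying the KIAA1429 shRNA (shKIAA1429) and 1 of cells with a control shRNA (shNC), and per the methods stable lines were selected with puromycin. The labels speak of a KIAA1429 knockout, the methods describe an shRNA knockdown, and which of the study's KIAA1429 shRNAs was sequenced is not stated in the sources used here. Since each group is 1 library, the spread between cultures is unknown and p-values are not given.

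NFI proteins bind DNA as dimers at a palindrome built from the motif TTGGC and its mirror image GCCAA. The 4 paralogs share the N-terminal domain for DNA binding and dimerization and differ more in the C-terminal part, which activates or represses transcription. They are known from the development of brain, lung, muscle and tooth, and NFIA is also known from the development of the urinary tract. KIAA1429, listed as VIRMA, is the scaffold of the complex that writes N6-methyladenosine (m6A) on mRNA.

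The values were FPKM, fragments scaled for gene length and library size, so levels of different genes can be set side by side. VIRMA was listed at 3.92 FPKM in the control cells and at 3.22 FPKM, or 82.1% of that, in the shKIAA1429 cells. Of the 535 genes in the same bin of mean FPKM as VIRMA, 107 had a lower log2 change. In these 2 libraries the targeted gene thus did not stand apart from genes of its level. By quantitative PCR and western blot the study reports significantly reduced KIAA1429 mRNA and protein in its ACHN knockdown cells. The 7 renal epithelial markers looked for, PAX8, PAX2, KRT8, KRT18, CDH16, EPCAM and MET, were all listed, at 4.29 to 104 FPKM over both libraries. With shKIAA1429 4 of them were higher and 3 lower. Of 6 markers of leukocytes, endothelium, fibroblasts and smooth muscle only COL1A1 was listed, at 1.08 FPKM with shNC and 1.62 FPKM with shKIAA1429. The 13 mitochondrial genes made up 42.2% of the summed FPKM with shNC and 34.6% with shKIAA1429, and their part in the differences below was assessed by rescaling without them.

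NFIX was the most abundant NFI gene of the control cells and was the member that differed most. It was measured at 32.8 FPKM in the shNC library and at 8.20 FPKM in the shKIAA1429 library, or 25.0% of the control level. Whether fewer cells held NFIX RNA or each cell held less of it cannot be told apart in bulk RNA. Changes of all genes were taken as the difference between the libraries in log2(FPKM + 1), shKIAA1429 minus shNC, and on this scale NFIX differed by -1.88. NFIC, a regulator of tooth root formation, was at 7.89 FPKM with shNC and at 9.59 FPKM with shKIAA1429, a log2 change of 0.25. NFIB, known for its role in lung maturation, was at 6.16 FPKM and 6.63 FPKM, a log2 change of 0.09. NFIA, which promotes glial fate, was close to the lower end of the listed values, at 0.736 FPKM with shNC and 0.339 FPKM with shKIAA1429. Its log2 change was -0.37 with the pseudocount of 1 and -1.12 as a plain ratio, and at such levels the change depends on the pseudocount. Thus NFIX was lower with shKIAA1429 and NFIB and NFIC were slightly higher. Over all genes averaging 1 FPKM or more the median log2 change was 0.06 and the median absolute change 0.22. NFIB and NFIC thus changed by amounts common among genes. NFIA was also lower, but each listed gene was above 0.5 FPKM in at least 1 library, and NFIA was so only with shNC. A gene listed in this way could appear only as lower, so the direction of NFIA supports nothing here.

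**Figure D1:**
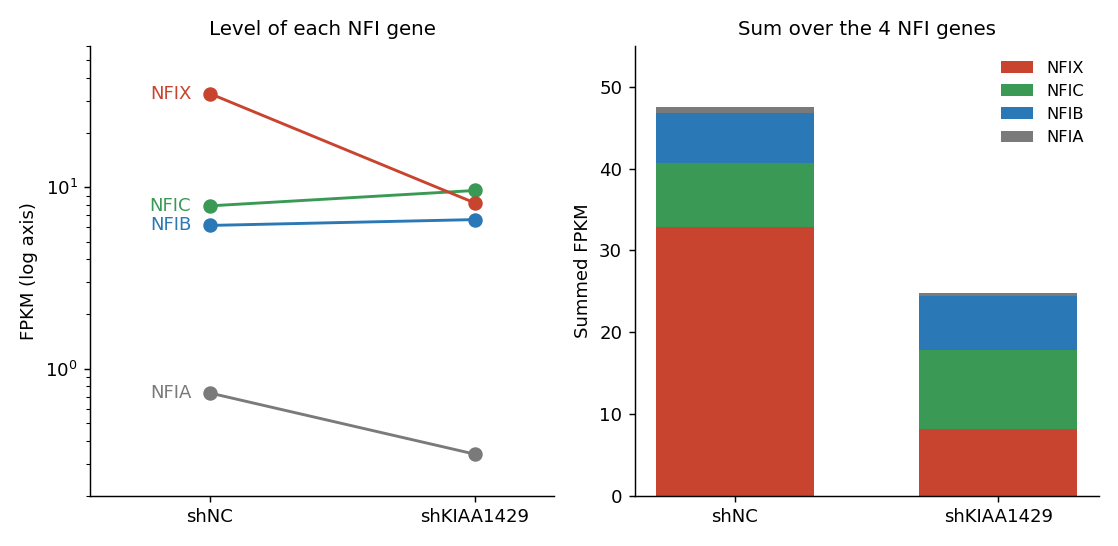
FPKM of the 4 NFI genes in the shNC and the shKIAA1429 library, 1 library each, on a log axis (left), and the same values stacked on a linear axis (right). NFIX is the highest point with shNC and lies below NFIC with shKIAA1429, and the stacked sum is 47.6 FPKM with shNC and 24.8 FPKM with shKIAA1429.

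The order of the levels differed between the libraries. With shNC it was NFIX, NFIC, NFIB and NFIA, and NFIX was 4.16 times as high as NFIC. With shKIAA1429 it was NFIC, NFIX, NFIB and NFIA, and NFIC was 1.17 times as high as NFIX. Whether NFIC and NFIX differ in the shKIAA1429 cells cannot be said, because no spread between cultures was measured. NFIX held 68.9% of the summed FPKM of the family with shNC and 33.1% with shKIAA1429. NFIC went from 16.6% to 38.7% of the sum and NFIB from 12.9% to 26.8%, while NFIA held 1.55% and 1.37%. These shares do not depend on the scaling of the libraries. The sum itself was 47.6 FPKM in the control cells and 24.8 FPKM in the shKIAA1429 cells, a log2 change of -0.92. Without NFIX the sum was 14.8 FPKM and 16.6 FPKM, so the other members together were higher by 1.78 FPKM, against a difference of -24.6 FPKM for NFIX.

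Among the 10708 genes whose FPKM averaged 1 or more over both libraries, NFIX held rank 12 from the lowest log2 change, and NFIA was the member that did not reach this mean. A limit of 1.5 on the log2 scale, the size of change that the study's methods ask of differentially expressed genes, was passed in the lower direction by 27 of these genes (0.252%) and in the higher direction by 42 (0.392%). Of the 3 members that reached the mean, NFIX was lower by more than 1.5 and 0 were higher by more than 1.5. This count describes the choice of the family and is not support for it. When the genes were divided into 20 bins of mean FPKM, NFIX lay near the lower edge of a bin of 536 genes, itself included, from 20.1 to 28.3 FPKM, and 0 of them had a lower log2 change. NFIB lay near the middle of its bin, where 271 of 535 genes had a lower and 263 a higher change, while of the 536 in the bin of NFIC 372 had a lower and 163 a higher change. By level, NFIX stood at rank 869 of the 10708 genes with shNC and at rank 4258 with shKIAA1429. NFIC moved from rank 4145 to rank 3684 and NFIB from rank 5056 to rank 5024.

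**Figure D2:**
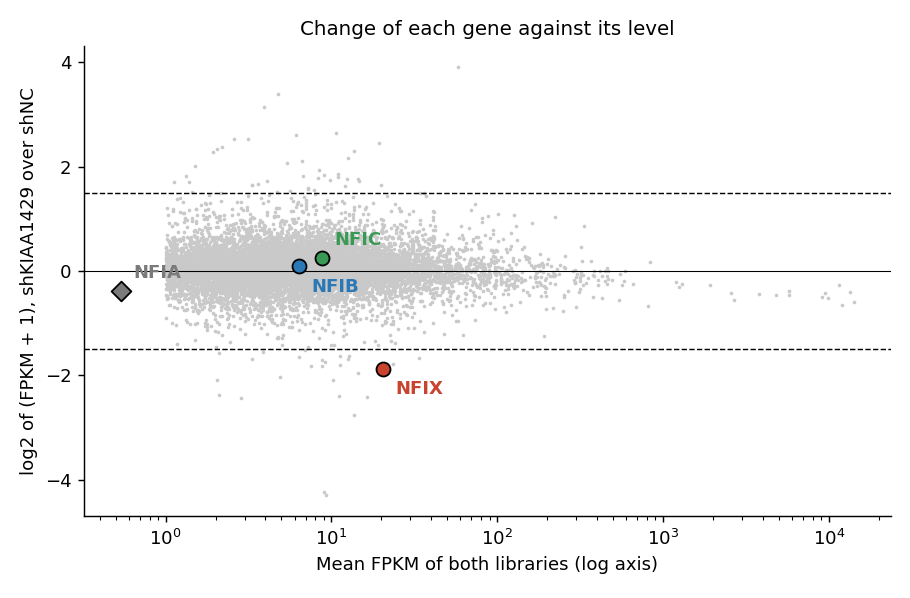
Log2 change with shKIAA1429 over shNC against the mean FPKM of both libraries (log axis), with 1 grey point for each of the 10708 genes averaging 1 FPKM or more and coloured points for the NFI genes (NFIA, below that mean, is the diamond). Dashed lines mark 1.5 in each direction; NFIX at -1.88 lies below the lower line, and NFIB and NFIC lie inside the cloud of genes.

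The paralogs are similar enough that reads could be shared between them, so their sequences were compared. Over the coding sequences of GENCODE 29, 1 transcript per gene, NFIX was identical to NFIA at 70.9% of the aligned bases, to NFIC at 69.9% and to NFIB at 65.5%. The longest run of coding bases that NFIX shared with another member was 52 bases, with NFIC, while it was 19 bases with NFIA and 17 bases with NFIB. When all annotated transcripts were divided into words of 50 bases, 3 of the 6609 words of NFIX (0.0454%) also occurred in another NFI gene, and 0 occurred in any other gene of the annotation. For NFIC it was 3 of 9883 words, and for NFIA and NFIB 0 words were shared. The reads of these libraries had 150 bases, longer than any shared run. Their lengths after trimming are not known and the alignments were not examined, so the sharing of reads was not tested. The NFI genes also overlapped 0 other listed genes on either strand, although GENCODE 29 places 1 gene of another type on the same strand within each of NFIA, NFIC and NFIX, and such genes are not listed in the tables. On the opposite strand GENCODE 29 has 3 genes overlapping NFIA, 2 overlapping NFIB, 1 overlapping NFIC and 2 overlapping NFIX.

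The stretch of 150 coding bases of NFIX, within 1 exon, that was most like the other members is printed because it shows, over 1 read length, where NFIX can be told from its relatives. It is part of the exon that holds much of the domain for DNA binding. In NFIX it lies in exon 2 at chr19:13025073-13025222 on the plus strand (GRCh38, transcript NFIX-214), in NFIA in exon 3 at chr1:61088201-61088350 on the plus strand, in NFIB in exon 2 at chr9:14307319-14307468 on the minus strand and in NFIC in exon 2 at chr19:3381764-3381913 on the plus strand. Each sequence is given 5′ to 3′ in the sense of the gene, and capitals mark the bases that differ from NFIX.
NFIX: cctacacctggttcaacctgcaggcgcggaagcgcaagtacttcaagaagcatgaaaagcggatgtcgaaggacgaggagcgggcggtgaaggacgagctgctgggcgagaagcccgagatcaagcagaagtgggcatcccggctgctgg
NFIA: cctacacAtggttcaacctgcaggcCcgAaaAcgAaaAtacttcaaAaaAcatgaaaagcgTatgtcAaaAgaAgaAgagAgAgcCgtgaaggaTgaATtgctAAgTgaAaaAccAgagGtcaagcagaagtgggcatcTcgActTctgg
NFIB: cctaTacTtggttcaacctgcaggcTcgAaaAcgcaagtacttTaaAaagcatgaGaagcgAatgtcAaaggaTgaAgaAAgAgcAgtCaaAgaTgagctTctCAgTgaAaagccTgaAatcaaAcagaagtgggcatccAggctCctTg
NFIC: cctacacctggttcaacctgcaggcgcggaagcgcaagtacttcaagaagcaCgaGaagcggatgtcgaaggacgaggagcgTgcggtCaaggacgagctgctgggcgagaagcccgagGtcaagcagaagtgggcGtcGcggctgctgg

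NFIC differed from NFIX at 7 of these 150 bases, NFIA at 29 and NFIB at 30. Thus a whole read of NFIX over this stretch carried bases that set it apart, with NFIC as the nearest relative. The stretch was picked by its summed differences from the other members. Stretches most like NFIC alone, across exons or outside the coding sequence were not searched. NFIC and NFIX, whose values went in opposite directions, are also alike in base composition: the longest coding transcript had a GC content of 59.0% in NFIC and 59.3% in NFIX, against 41.2% in NFIA, 39.5% in NFIB and a median of 48.5% over 10648 genes. The longest coding transcripts had 9487 bases for NFIA, 8198 bases for NFIB, 8399 bases for NFIC and 5459 bases for NFIX. GENCODE 29 gives 11 coding transcripts of NFIX, the shortest with 579 bases. A gene-level FPKM does not show which of them was present, and a shift between transcripts of unlike length was not tested.

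Because KIAA1429 belongs to the m6A writer, the motif GGACT, a common form of the site at which m6A is written (GGACU in RNA), was counted on the sense strand of the longest coding transcript. NFIX held 6 copies, which is 1.10 per kb, NFIB 11 copies (1.34 per kb), NFIC 7 copies (0.833 per kb) and NFIA 6 copies (0.632 per kb). The median over 10648 genes was 0.927 per kb, and 61.0% of them had a lower density than NFIX. The density was higher in NFIB than in NFIX. A match to the motif is not a methylated site, and m6A was not measured in these libraries.

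NFIX and NFIC both lie on chromosome 19, and the genes beside them were examined for changes that spread along the chromosome. In the tables, whose positions are those of GRCh37, NFIX (ENSG00000008441.16_4) runs from 13106422 to 13209610 on the plus strand and NFIC (ENSG00000141905.18_4) from 3314401 to 3469215 on the plus strand. The nearest listed gene after NFIX, TRMT1, a tRNA methyltransferase 6.11 kb away, was at 8.66 FPKM with shNC and 8.26 FPKM with shKIAA1429. The nearest gene before it, GADD45GIP1, a mitochondrial ribosome protein, was at 24.3 FPKM and 23.9 FPKM. Within 300 kb of NFIX 18 genes were listed, with log2 changes from -0.44 to 0.49, and 0 of them passed 1.5 in either direction. Among the 10708 genes only 0.252% were lower and 0.392% higher by more than 1.5, so a count of 0 is near that share. Within 300 kb of NFIC 12 genes were listed, with log2 changes from -0.21 to 0.17. The nearest were NCLN, with 13.4 FPKM and 12.5 FPKM, and FZR1, an activator of the anaphase-promoting complex, with 3.12 FPKM and 3.31 FPKM. The listed neighbours of NFIX did not share its low value, as few genes anywhere did, and a spread along the chromosome was not tested.

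**Figure D3:**
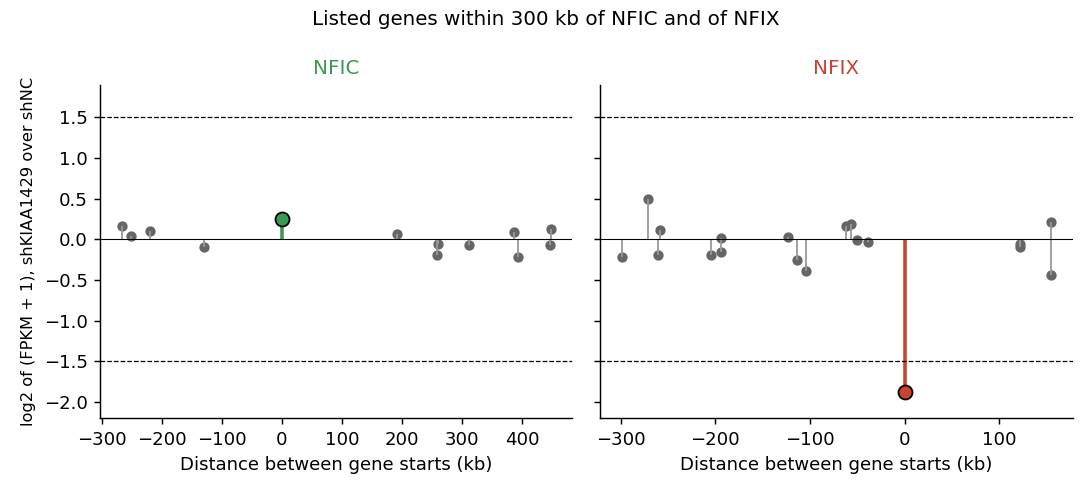
Log2 change with shKIAA1429 over shNC (y axis) of the listed genes within 300 kb of NFIC (left) and NFIX (right), placed by the distance between gene starts in kb (x axis). The coloured point is the NFI gene, grey points are its neighbours and dashed lines mark 1.5 in each direction; the neighbours of NFIX lie between -0.44 and 0.49, and NFIX lies at -1.88.

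On GRCh37, NFIB (ENSG00000147862.15_1) spans positions 14081842 to 14398982 of chromosome 9, minus strand, and NFIA (ENSG00000162599.15_3) positions 61330931 to 61928465 of chromosome 1, plus strand. Both stand far from other listed genes. The nearest to NFIB was ZDHHC21, a palmitoyltransferase 212 kb away, with a log2 change of 0.20, and MPDZ on the other side had a change of 0.04. The nearest to NFIA was TM2D1, 218 kb away, with a log2 change of -0.02. CYP2J2, 938 kb to the other side of NFIA, was at 1.64 FPKM with shNC and 0.955 FPKM with shKIAA1429, a log2 change of -0.43.

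The spread within the NFI family was set beside that of 2 other families of paralogous transcription factors. Log2 changes ran over a width of 2.13 in the 4 NFI genes. In the 4 TEAD genes, the DNA-binding partners of YAP and TAZ, the width was 0.87, from -0.31 for TEAD2 to 0.57 for TEAD3. TEAD1 was at 12.1 FPKM with shNC and 14.9 FPKM with shKIAA1429, and TEAD4, the most abundant, at 35.5 FPKM and 30.2 FPKM. In the 3 listed TCF/LEF genes, which act in Wnt signaling, the width was 0.14, from -0.19 for TCF7L1 to -0.05 for LEF1, with TCF7L2 at -0.07. TCF7 was not among the listed genes. The NFI width rests on NFIX, whose low level was known when the family was picked, so a wide range was given by that choice. With the pseudocount of 1 the other NFI genes lay between -0.37 and 0.25, and the value of NFIA depends on that pseudocount. With 1 library per group the difference between families was not tested.

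Genes described in other tissues as controlled by NFI proteins were followed as a list of 29, holding both activated and repressed genes. The list was written from general knowledge but with earlier results of these data known. Its counts and median therefore describe the genes chosen and are not a test of NFI activity. Of these 14 were listed and 13 averaged 1 FPKM or more. Of the 13 genes, 11 were higher with shKIAA1429 and 2 were lower, against 57.3% higher among all 10708 genes. Their median log2 change was 0.40, against 0.06 over all genes. None was lower or higher by more than 1.5. A limit of 1 was passed in the higher direction by 2 of the 13 (1.62% of all genes) and in the lower direction by 0 (0.897% of all genes). Those 2 were SOX9, a transcription factor that works with NFIA in glia, at 0.573 FPKM with shNC and 2.87 FPKM with shKIAA1429, and the cyclin gene CCND1, at 42.4 FPKM and 96.6 FPKM. SOX9 averaged 1 FPKM or more only through the shKIAA1429 library, so a gene like it could enter these counts only as higher, and it supports nothing here. The next values were those of CSF1, a macrophage growth factor, at 2.54 and 5.46 FPKM, and of the Notch target HES1, at 7.78 and 14.4 FPKM. The CDK inhibitor gene CDKN1A was at 91.0 and 151 FPKM, and KLF4, a transcription factor downstream of NFIC in tooth cells, was at 1.09 and 2.10 FPKM. The histone methyltransferase gene EZH2 was at 11.2 and 15.1 FPKM and the muscle enolase gene ENO3 at 8.16 and 11.1 FPKM. The 2 lower genes, named after their values were seen, were SLC25A5, a mitochondrial carrier for adenine nucleotides, at 126 and 97.7 FPKM, and FOXA1 at 1.92 and 1.63 FPKM. Several of these genes answer to many other regulators, and whether NFIX bears on their values was not tested.

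**Figure D4:**
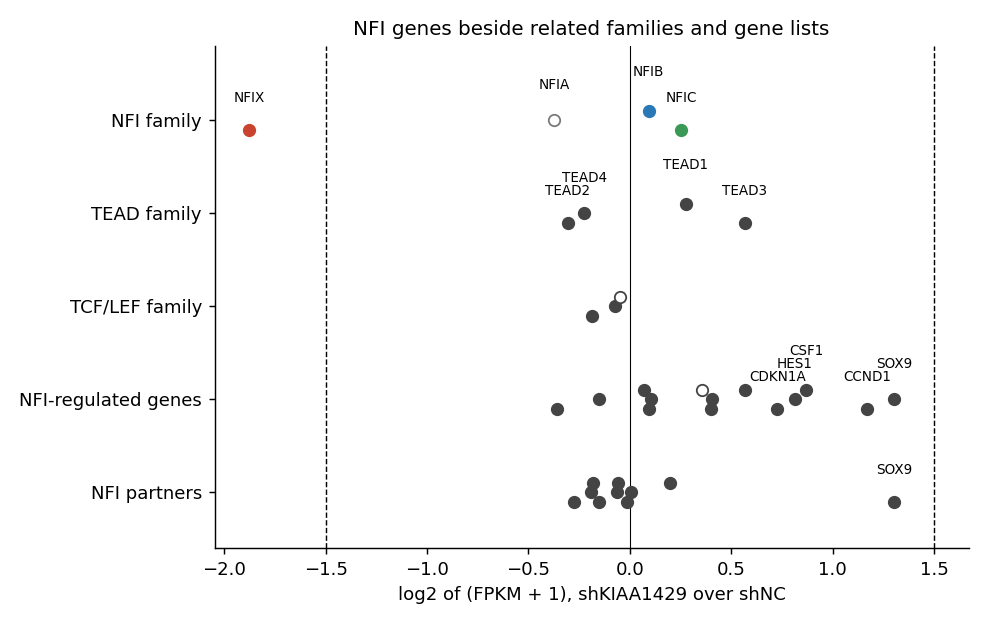
Log2 change with shKIAA1429 over shNC (x axis) for each listed gene of the NFI, TEAD and TCF/LEF families, of the list of genes described as controlled by NFI and of the list of NFI partners (rows). Open circles are genes with a mean FPKM under 1, points are shifted up or down only to separate them, and dashed lines mark 1.5 in each direction; NFIX is the gene in these rows beyond a dashed line.

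Proteins known to work with NFI formed a list of 12, also chosen with earlier results of these data known. Of these 10 were listed, all averaging 1 FPKM or more. Here 3 genes were higher and 7 lower with shKIAA1429, against 57.3% higher among all 10708 genes. Their median log2 change was -0.06, against 0.06 over all genes, and without SOX9 the changes ran from -0.27 to 0.20. SKI, a corepressor that binds NFI, was at 8.07 FPKM with shNC and 6.99 FPKM with shKIAA1429. The general transcription factor gene GTF2B was at 9.17 and 7.41 FPKM, and TAF7, a subunit of the TFIID complex, at 21.1 and 20.1 FPKM. The histone chaperone gene SET was at 105 and 91.6 FPKM, TOP1, a DNA topoisomerase, at 32.0 and 36.8 FPKM, and POU2F1, an octamer-binding factor, at 2.14 and 2.01 FPKM. SOX9 and FOXA1 stand in both lists, and SOX9, one of the 3 higher genes, again entered only through the shKIAA1429 library. Of the 10 genes 0 passed 1.5 in either direction, against 0.252% of all genes in the lower direction and 0.392% in the higher.

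The genes most like each member were found as the 3 nearest in the plane of the log2 (FPKM + 1) values of the 2 libraries. For NFIX they were DUSP3, a protein phosphatase, at 36.8 FPKM with shNC, a log2 change of -1.78 and a distance of 0.306, AKAP2, an anchoring protein for protein kinase A, at 28.1 FPKM, a log2 change of -1.41 and a distance of 0.331, and NABP2, which binds single-stranded DNA, at 26.9 FPKM, a log2 change of -1.35 and a distance of 0.374. No gene lay within a distance of 0.1 of NFIX, whereas 109 genes did so for NFIC, 117 for NFIB and 43 for NFIA. The family was picked with the low value of NFIX known, and few genes change as much. This contrast was therefore given by that choice. The nearest for NFIC were HSPB11, CALM3 and ARID1A, at distances of 0.00557 to 0.0152. DERL2, EMC2 and PRR3 were nearest to NFIB at 0.0121 to 0.0191, and CDK20, RUNDC3A and METTL12 were nearest to NFIA at 0.00443 to 0.0207. A likeness over 2 libraries describes the levels and says little else.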

How the data were processed

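FPKM values for 2 libraries of poly(A) RNA, 1 per group, were computed and deposited by the authors. The submitters' processing notes name cutadapt 1.9, HISAT2 2.0.4 and StringTie 1.3.4d, and also DESeq2 and edgeR, which were not used here. The build is not given in the sources used here, and the positions are those of GENCODE genes on GRCh37. Each of the 12014 listed genes, all protein-coding, was above 0.5 FPKM in at least 1 library. FPKM keeps no counts, so the depth behind a value is unknown.

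Changes were differences in log2(FPKM + 1), shKIAA1429 minus shNC, and the 10708 genes averaging 1 FPKM or more were compared in 20 bins of mean FPKM. With 1 library per group no test was run. The alternatives tried were centring on the median, a pseudocount of 0.1, rescaling to a sum of 1000000 with or without mitochondrial genes, a limit of 1, and no filter or a mean of at least 5.

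The members and lists were chosen with earlier results of these data known. Genes named are the members, VIRMA, the marker lists, up to 8 listed genes per list with the largest changes, both related families, the 3 nearest patterns and the nearest gene on each side. Coding sequences and transcripts came from GENCODE 29 (GRCh38), 1 transcript per gene with the longest complete coding sequence, aligned with Biopython 1.88, and promoter windows from RefSeq (GRCh38.p14), in which all 4 members were found. Simulated data were used to check only the calculation of the log2 changes and the limit set on them. The alignments, shared words, neighbours, motifs, bins and lists were not checked in this way. Python 3.11.15, NumPy 2.4.6, pandas 2.3.3 and matplotlib 3.10.9 were used.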

Additional observations from a re-analysis of the deposited data

How the results depend on the processing

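The log2 change of NFIX stayed between -1.99 and -1.79 over the scalings and pseudocounts tried and past 1.5 in each. NFIB stayed between 0.03 and 0.28 and NFIC between 0.19 and 0.45, both above 0 and within 1.5, and the sum of the family stayed between -0.97 and -0.75. NFIA, at -0.37, was at -0.93 with a pseudocount of 0.1, at -0.61 when the libraries were rescaled to a sum of 1000000 and at -0.84 when mitochondrial genes were left out of that sum, since each of these makes the pseudocount smaller next to its values. Rescaling moved the median of all genes from 0.06 to 0.24, and the median of the NFI partners then turned from -0.06 to 0.10, below that of all genes. The median of the genes controlled by NFI stayed between 0.35 and 0.61.

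Counts of all genes past 1.5 moved more. Against 42 higher and 27 lower genes there were 114 and 60 with a pseudocount of 0.1, 109 and 57 when the libraries were rescaled with mitochondrial genes left out of the sum, and 174 and 96 past a limit of 1. Rescaling gave 135 higher and 32 lower genes, and asking for an average of 5 FPKM or more gave 24 higher genes, because fewer were compared. No paired analysis was possible because each group holds 1 library.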

Other observations

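The palindrome that NFI dimers bind was looked for in the promoter windows of the members, 300 bases each with 250 before and 50 after an annotated start (RefSeq, GRCh38.p14). The whole palindrome, TTGGC followed after 5 bases of any kind by GCCAA, which reads the same on both strands, was found in 0 windows of the 4 genes and in 10 of the 35116 windows of all genes. TTGGC or GCCAA alone, which are the same motif on either strand, stood in 2 of 5 windows of NFIX, 6 of 10 windows of NFIB, 1 of 3 windows of NFIA and 0 of 1 window of NFIC, against 45.6% of all windows. The 2 windows of NFIX overlap and hold the same site. For each gene with a match, 1 is shown as an example, for NFIB out of 7, with its surroundings, 5′ to 3′ in the sense of the gene and with the motif in capitals. For NFIX it lies at chr19:13024494-13024522 on the plus strand, for NFIB at chr9:14322446-14322474 on the minus strand and for NFIA at chr1:61077035-61077063 on the plus strand.
NFIX: ttcttgggggcgGCCAAaaatcgaccggt
NFIB: gccgcgggccagGCCAAtccgagggcggg
NFIA: taggggctcctaTTGGCcacgcgccgtag

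These matches are a description of the windows. Binding of NFI proteins was not measured in these libraries.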
